A study of Mus musculus with 2 samples.

Results

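The SLC25 carriers are the largest family of transport proteins of the inner mitochondrial membrane, and the genes described here are those whose symbol is Slc25a followed by a number. They were taken from the deposited transcript tables as annotated genes with such a symbol, and their reads were summed per gene and per transcript model. GENCODE M21 holds 47 such genes. Of these, 38 had at least 1 read, among 15631 annotated genes with reads. The 38 were all found in replicate 1 and 35 of them in replicate 2, as 232 and 204 transcript models.

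Whole gastrocnemius, a calf muscle made mostly of fast fibres, was measured by long-read sequencing of total RNA in 10-day-old males of B6CASTF1/J, an F1 hybrid mouse strain. There were 2 biological replicates in 1 group, with 2 µg of RNA each, and no treatment, mutation or control group. The labels name a different male for each library but give both the same donor identifier. The libraries were taken as 2 animals, and if they were not, the SDs and differences below would not measure the spread between animals. Comparisons are therefore between 2 libraries and not between conditions, and their p-values cover counting error only.

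The carrier proteins are built from repeats that form a single transport path, and many of them swap one small molecule for another across the membrane. ADP/ATP and phosphate carriers feed ATP synthase and export its product. The aspartate/glutamate and oxoglutarate carriers move reducing equivalents into the mitochondrion. Others move acylcarnitines, amino acids, nucleotides, cofactors, iron and glutathione. In skeletal muscle the ADP/ATP carriers are among the most abundant proteins of the inner membrane.

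The Slc25a3 gene, which encodes the phosphate carrier, has a pair of mutually exclusive coding exons, and a form with one of them is known from heart and skeletal muscle. Both exons are shown because the choice between them was read directly from single molecules. They lie on the minus strand of chromosome 10 (mm10), the upstream exon at chr10:91122207-91122331 with 125 nt and the downstream exon at chr10:91121922-91122043 with 122 nt. The sequences run 5′ to 3′, and capitals mark bases that differ, or face a gap, in the alignment of one exon with the other.
Slc25a3 upstream exon: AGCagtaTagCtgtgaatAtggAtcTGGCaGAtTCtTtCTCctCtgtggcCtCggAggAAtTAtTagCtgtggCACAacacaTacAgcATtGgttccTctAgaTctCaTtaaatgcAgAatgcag
Slc25a3 downstream exon: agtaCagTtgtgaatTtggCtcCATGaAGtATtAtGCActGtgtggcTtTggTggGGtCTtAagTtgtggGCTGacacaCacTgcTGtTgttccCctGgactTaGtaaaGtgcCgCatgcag
The alignment had 126 columns, of which 80 were identical, or 63.5%. The exons therefore differ along their whole length, and a read that holds one of them cannot be taken for the other.

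Slc25a25 encodes a calcium-regulated ATP-Mg/phosphate carrier and can start from several first exons. Its sequences are shown because most of its reads began at one start, and because its ratio between the libraries was the farthest from 1 among the 23 carriers tested. The near first exon lies 2194 nt before the second exon on the minus strand of chromosome 2. Its coding part, at chr2:32423794-32423952 (mm10, 159 nt), begins with the start codon in capitals.
Slc25a25 near first exon, coding part: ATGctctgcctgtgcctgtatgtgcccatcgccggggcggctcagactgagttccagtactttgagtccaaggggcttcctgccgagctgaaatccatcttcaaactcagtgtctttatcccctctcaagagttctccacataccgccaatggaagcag
A 36-nt coding exon of the same gene, at chr2:32420656-32420691, is in some transcripts and not in others.
Slc25a25 36-nt exon: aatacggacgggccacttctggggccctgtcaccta
The 250 bases before the RefSeq start of the near first exon (GRCm38, minus strand, chr2:32424067-32424316) hold the letters TGACGTCA, the palindromic cyclic-AMP response element (CRE), which is in capitals.
Slc25a25 near promoter: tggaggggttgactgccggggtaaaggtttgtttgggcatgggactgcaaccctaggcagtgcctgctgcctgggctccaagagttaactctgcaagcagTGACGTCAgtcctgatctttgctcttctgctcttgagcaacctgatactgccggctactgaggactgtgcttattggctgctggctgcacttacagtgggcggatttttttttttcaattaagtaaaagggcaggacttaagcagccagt
The element ends 142 bases before that start. RefSeq lists 3 starts for Slc25a25, and the windows before the other two do not hold these letters.

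Mouse reads numbered 1145490 in replicate 1 and 941841 in replicate 2, over 14452 and 13740 annotated genes. Levels are reads per 1000000 mouse reads (CPM). A long read counts 1 molecule, so CPM was not divided by transcript length. With the limit set at 3 reads, a gene without reads could still lie at up to 2.62 CPM (replicate 1) or 3.19 CPM (replicate 2). Muscle fibre markers summed to 256472 and 250043 CPM. Of the liver and testis markers, Alb and Prm2 were at 0 reads in both libraries and Apoa1 and Prm1 had 1 read each in replicate 2. Fibroblast and matrix markers (4 of 4 detected) summed to 18609.5 and 10926.5 CPM, and erythroid markers (5 of 5) to 409 and 853 CPM.

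The carriers took 12675 reads in replicate 1 and 13796 in replicate 2. That was 1.11% and 1.46% of mouse reads, or 11065 and 14648 CPM, with a mean of 12856.5 ± 2533 CPM (SD, n = 2). A single gene, Slc25a4, held 75.2% of the carrier reads in replicate 1 and 77.3% in replicate 2. Slc25a4, Slc25a3, Slc25a11, Slc25a5 and Slc25a12 together held 94.4% and 94.5%. Without Slc25a4 the other carriers summed to 2744 and 3320 CPM. In whole muscle, a larger share of cells of a type and more RNA per cell cannot be told apart.

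**Figure D1:**
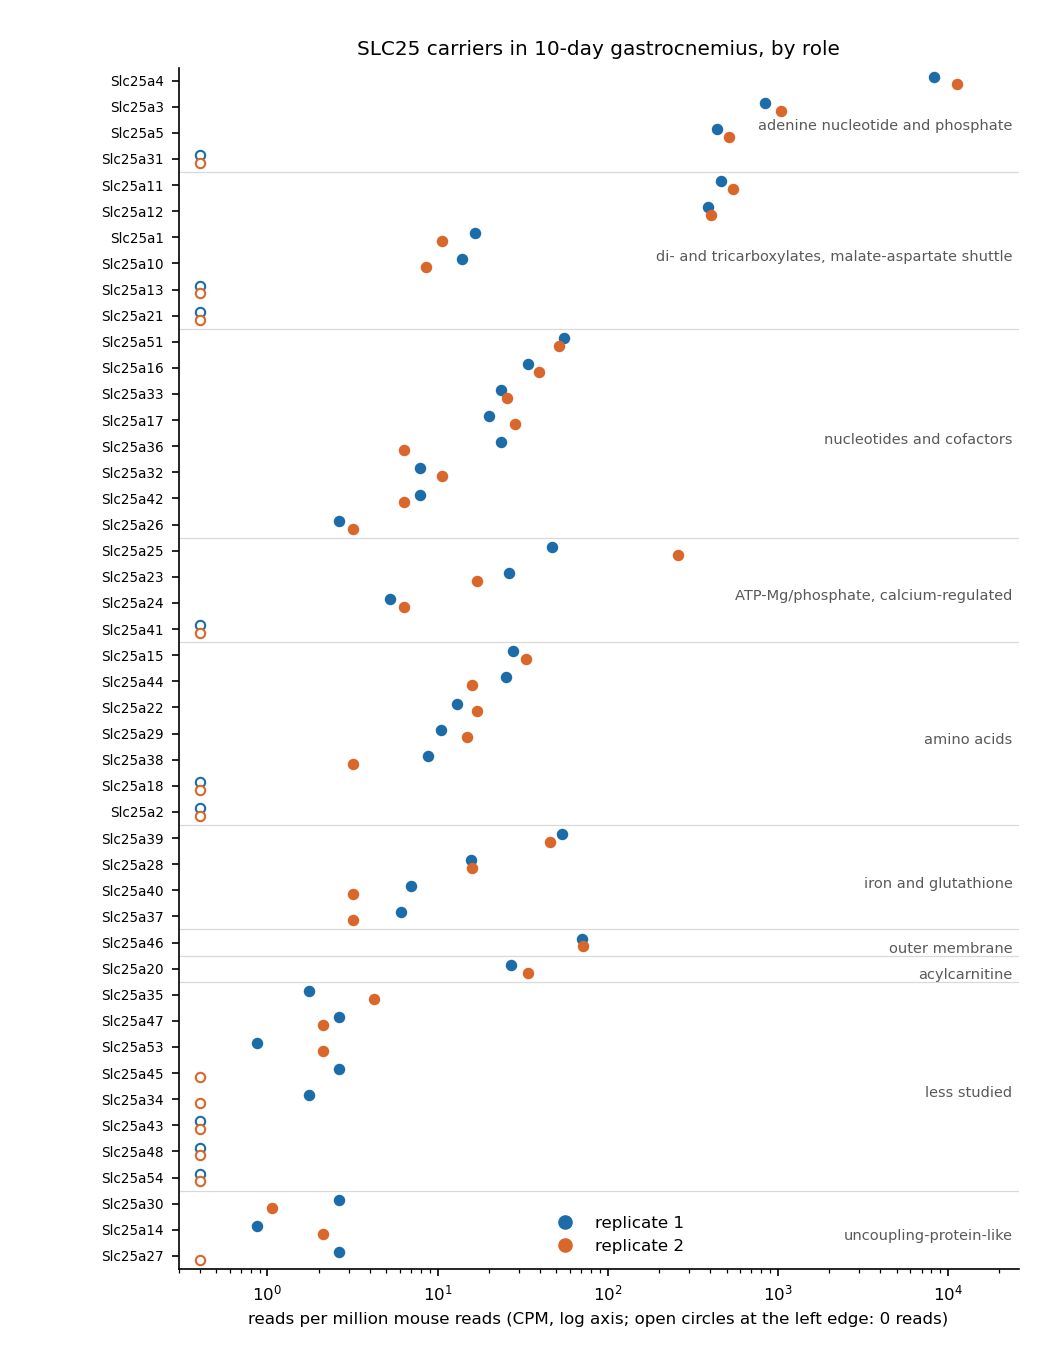
Level in CPM of 46 carriers on a log axis, grouped by role, with 1 point per library (blue, replicate 1; orange, replicate 2) and open circles at the left edge for 0 reads. Slc25a4 stands at 8321 and 11328 CPM, the next 4 carriers between 387 and 1046 CPM, and Slc25a25 shows the widest gap between libraries among the carriers with 50 or more reads.

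The carriers of adenine nucleotides and phosphate had the highest levels of any role, at 9595 and 12892 CPM. Slc25a4 encodes the ADP/ATP carrier of heart and skeletal muscle and lies at chr8:46206797-46211284 (mm10, minus strand). It had 9532 reads in replicate 1 and 10669 in replicate 2, or 8321 and 11328 CPM. It ranked 13 and 8 among all genes of its library. Slc25a5, the ADP/ATP carrier of most other cells, is X-linked and lies at chrX:36795651-36798807. It had 502 and 488 reads, or 438 and 518 CPM. Slc25a31, an ADP/ATP carrier of testis, had no read. Slc25a4 therefore made up 95.0% of the reads of the 3 ADP/ATP carriers in replicate 1 (95% Wilson interval 94.6% to 95.4%) and 95.6% in replicate 2 (95.2% to 96.0%). The share was 95.3% ± 0.445 (SD, n = 2). Slc25a3 had 957 and 985 reads, or 835 and 1046 CPM, and ranked 80 and 72.

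The malate-aspartate shuttle carriers came next. Slc25a11, which exchanges oxoglutarate for malate, had 532 and 512 reads, or 464 and 544 CPM. Slc25a12, the calcium-sensing aspartate/glutamate carrier of muscle and brain, had 443 and 380 reads, or 387 and 403 CPM. Its paralogue Slc25a13, the aspartate/glutamate carrier best known from liver, had no read in either library. Of the reads of both aspartate/glutamate carriers, Slc25a12 thus had 100%, and 0 reads allow Slc25a13 a share of up to 0.677% in replicate 1 and 0.789% in replicate 2. Slc25a11, Slc25a5 and Slc25a12 followed Slc25a3 in that order in both libraries, all between 387 and 544 CPM. The other organic acid carriers were far lower. The citrate carrier Slc25a1 and the dicarboxylate carrier Slc25a10 had 29 and 24 reads over both libraries, and the oxodicarboxylate carrier Slc25a21 had none.

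Among the ATP-Mg/phosphate carriers, which move adenine nucleotides in net amounts and mostly sense calcium, Slc25a25 was the most abundant. It had 54 reads in replicate 1 and 244 in replicate 2, or 47.1 and 259 CPM. Slc25a23 had 30 and 16 reads and Slc25a24 had 6 and 6. Slc25a41 had none. Slc25a25 made up 60% of the reads of these 4 genes in replicate 1 (49.7% to 69.5%) and 91.7% in replicate 2 (87.8% to 94.5%). The Wilson intervals do not overlap. The sum of this role was 78.6 CPM in replicate 1 and 282 CPM in replicate 2.

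Carriers of nucleotides and cofactors were low and many: all 9 had reads, and they summed to 228 and 239 CPM. Slc25a51, the NAD carrier, had 63 and 49 reads and did not pass the test between libraries. Slc25a16, linked to coenzyme A supply, had 39 and 37 reads. Slc25a33, a pyrimidine nucleotide carrier, had 23.6 and 25.5 CPM. Slc25a17, which works in peroxisomes and not in mitochondria, had 20.1 and 28.7 CPM. The other pyrimidine nucleotide carrier, Slc25a36, had 27 reads in replicate 1 and 6 in replicate 2, or 23.6 and 6.37 CPM. Slc25a33 thus had 50% of the reads of this pair in replicate 1 (37.1% to 62.9%) and 80% in replicate 2 (62.7% to 90.5%), with intervals that overlap by a small margin.

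The remaining roles were each below 100 CPM. Slc25a46, which sits in the outer membrane and acts in mitochondrial dynamics rather than transport, had 70.7 and 71.1 CPM. Slc25a39, needed for mitochondrial glutathione, had 54.1 and 45.7 CPM and held 88.6% and 93.5% of the reads shared with its paralogue Slc25a40. The mitochondrial iron importers Slc25a28 and Slc25a37, the second of them known for its role in red cell precursors, had 18 and 7 reads in replicate 1 and 15 and 3 in replicate 2. Of the erythroid markers, 2 of 5 were called higher in replicate 2. Slc25a37 had too few reads to be tested, so it gives no direction to set beside them. Slc25a20, the carnitine/acylcarnitine carrier of fatty acid oxidation, had 31 and 32 reads. Slc25a15, the ornithine carrier of the urea cycle, had 27.9 and 32.9 CPM. It was the most abundant of the carriers grouped under amino acids, a role that leaves out Slc25a12, counted with the shuttle. Slc25a44, a branched-chain amino acid carrier, had 25.3 and 15.9 CPM. The glutamate carrier Slc25a22 had 15 and 16 reads, while its paralogue Slc25a18 had none.

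In all, 15 carriers had 50 or more reads over both libraries and 16 had 6 to 49 reads, at mean levels from 2.90 to 21.6 CPM. Another 7 had 5 reads or fewer: Slc25a47, Slc25a30, Slc25a14, Slc25a53, Slc25a27, Slc25a45 and Slc25a34. No read was found for 9 carriers: Slc25a2, Slc25a13, Slc25a18, Slc25a21, Slc25a31, Slc25a41, Slc25a43, Slc25a48 and Slc25a54. Among the low ones are the uncoupling-protein-like carriers Slc25a14, Slc25a27 and Slc25a30, which summed to 6.11 and 3.19 CPM. At this depth a level under the floor cannot be told from absence.

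The libraries were compared gene by gene with an exact two-sided conditional binomial test, Benjamini-Hochberg adjusted over all 7516 genes with 20 or more reads in all. Calls needed a 2-fold difference as well as an adjusted p under 0.05, and 2.75% of all genes tested were called. Of the carriers, 23 were tested and 2 were called, 1 in each direction, against a background of 0.838% higher in replicate 2 and 1.92% higher in replicate 1. The 15 carriers with fewer than 20 reads were not tested. The median log2 ratio of replicate 2 to replicate 1 was 0.21 over the 23 carriers and -0.01 over all genes tested. By ratio of any size, 16 of the 23 were higher in replicate 2 and 7 in replicate 1. Matching counts over all genes tested were not made, and only 4 of the 23 passed the adjusted p.

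Slc25a25 was called higher in replicate 2. Its 54 and 244 reads gave a ratio of 5.50 (exact binomial test, adjusted p = 2.3e-36). Slc25a36 was called higher in replicate 1, at 27 against 6 reads, a ratio of replicate 2 to replicate 1 of 0.270 (exact binomial test, adjusted p = 0.0216). That call rests on few reads. The call was lost when single-exon Genomic reads were left out (ratio 0.276, adjusted p = 0.0575) or when annotated transcripts alone were counted (ratio 0.286, adjusted p = 0.121), with a ratio about as far from 1. Slc25a36 also has 1 annotated pseudogene copy at 99.6% identity, to which 0 reads were assigned, so its reads and those of the copy may not be separable.

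Slc25a4 and Slc25a3 passed the adjusted p and not the 2-fold limit. The ratio of Slc25a4 was 1.36 (exact binomial test, adjusted p = 1.5e-103), and that of Slc25a3 was 1.25 (exact binomial test, adjusted p = 3.4e-05). By the adjusted p alone, 4 of 23 carriers passed, against 9.11% of all genes tested. Slc25a11 (ratio 1.17), Slc25a5 (ratio 1.18) and Slc25a12 (ratio 1.04) did not pass. The lower carriers gave ratios between 0.608 and 1.43 and did not pass either, which does not show that their levels were equal. Markers of tissue makeup moved both ways, within the muscle and matrix lists and between other lists. Of the 6 muscle fibre markers, Myh4 (ratio 0.379) was called lower in replicate 2, and Myh1 (0.518) and Atp2a1 (0.774) were lower without a call. Acta1 (1.17), Ckm (1.21) and Tnnc2 (1.43) were higher there without a call. All of these uncalled fibre markers passed the adjusted p and not the 2-fold limit. Of the 4 matrix markers 0 were called, with Col1a1 (0.531), Col3a1 (0.601) and Pdgfra (0.517) lower and Dcn (1.19) higher. Among these, Col1a1, Col3a1 and Dcn passed the adjusted p. The median log2 ratio was 0.85 over the 5 erythroid markers, of which 2 were called higher in replicate 2. It was -0.91 over the 3 endothelial and -0.19 over the 3 Schwann markers, of which 0 were called. Over the 2 fat cell and 2 immune markers tested it was 0.72 and -0.26, with 0 called. The part of tissue makeup in the carrier differences was not tested.

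**Figure D2:**
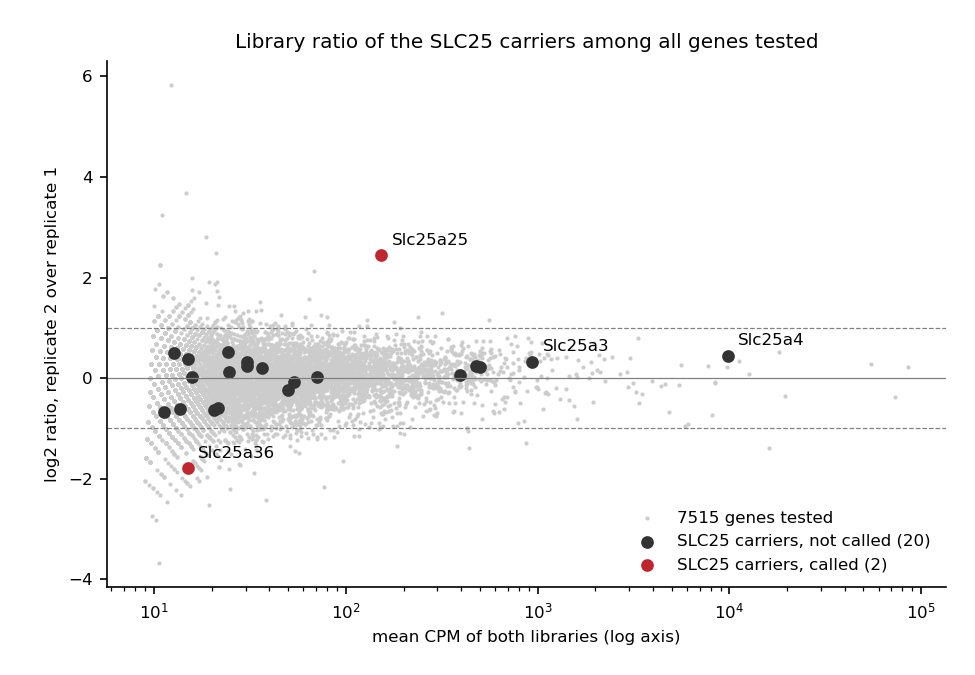
Log2 ratio of replicate 2 to replicate 1, with 0.5 reads added to each count, against mean CPM on a log axis for 7515 genes tested (grey) and 22 carriers among them (black, or red where called). Dashed lines mark a 2-fold difference; Slc25a25 and Slc25a36 lie outside them, and Slc25a4 and Slc25a3 lie inside.

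The Slc25a25 difference was followed to its first exons. Reads spliced into the second exon numbered 45 in replicate 1 and 224 in replicate 2. Of these, 39 and 208 came from the near first exon, or 86.7% (73.8% to 93.7%) and 92.9% (88.7% to 95.6%). The far first exon, 29467 nt before the second exon, gave 5 and 13 reads, and the middle one gave 1 and 1. Naif1 overlaps Slc25a25 on the opposite strand, and unspliced reads were not assigned to a first exon. In CPM, the near exon had 34.05 in replicate 1 and 221 in replicate 2, a ratio of 6.49. The far exon had 4.36 and 13.8, a ratio of 3.16. Both starts had more reads in replicate 2, and the intervals of the near share overlap, so no change in the choice of start was shown. The 36-nt exon was in 2 and 12 reads, and every one of them began at the near exon. It was held by 4.65% of spanning reads in replicate 1 (1.28% to 15.5%) and 5.36% in replicate 2 (3.09% to 9.13%).

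**Figure D3:**
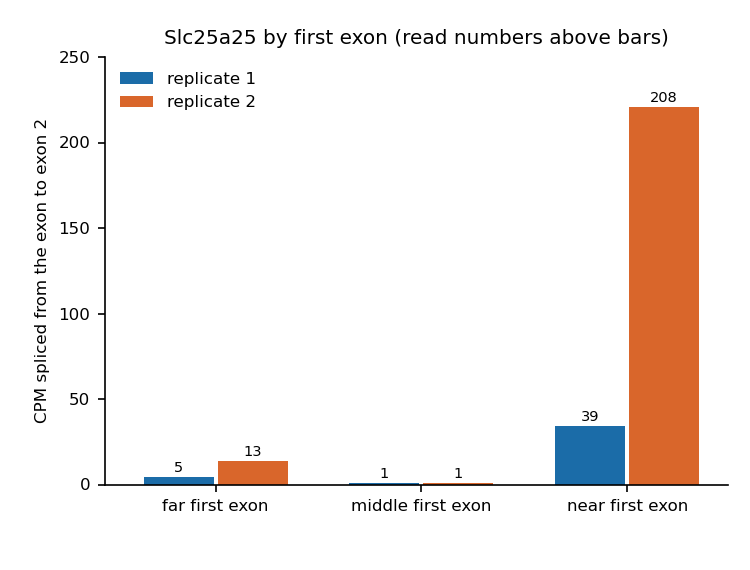
CPM of Slc25a25 reads spliced from each of its first exons to the second exon, with 1 bar per library and the number of reads above it. The near exon has 39 reads in replicate 1 and 208 in replicate 2, and the other two exons have 13 or fewer.

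The windows of 250 bases before RefSeq starts were searched on both strands for 7 motifs, among them the letters TGACGTCA. Of 46 windows of 36 carriers, 2 held them, or 4.35%, against 1.55% of 32851 windows of all genes. Those were the near window of Slc25a25 and a window of Slc25a36, the 2 carriers called in opposite directions. A match of letters is a description of sequence and not a site of binding. CpG dinucleotides had a median of 11.5 per window in the carriers and 6 in all, with 4 in the near window of Slc25a25. The letters CCAAT, of the common CCAAT box, were in 45.7% of the carrier windows and 33.8% of all. By gene, they were in 18 of 36 carriers, and they occurred once in the near window of Slc25a25. Some windows of the same gene overlap, as in Slc25a23, so windows are not independent. The letters CCGGAAGT, of ETS-family sites, were in 1 carrier window (Slc25a20), or 2.17% against 2.88% of all. The E-box, CANNTG, was in 71.7% against 66.2% of all. The pattern searched for MEF2 allowed any base at its middle positions, so a match to it need not be a MEF2 motif. That pattern was, like the CRE, in 2 windows, or 4.35% against 3.20% of all. Those were windows of Slc25a10 and Slc25a22, which were not called. The NRF1 and ERR motifs were in 0 carrier windows, against 0.782% and 0.387% of all.

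Of Slc25a3 reads with either of its exclusive exons, 850 of 920 held the upstream exon in replicate 1, or 92.4% (95% Wilson interval 90.5% to 93.9%). In replicate 2 it was 898 of 951, or 94.4% (92.8% to 95.7%). The downstream exon was in the other 70 and 53 reads. Both exons were in 1 read of each library, and a read that skipped both was found once, in replicate 1. The mean share of the upstream exon was 93.4% ± 1.44 (SD, n = 2), and the intervals of the libraries overlap. An annotated form whose upstream exon runs on to a later splice donor had 0 reads. The main annotated transcript with the upstream exon held 84.2% and 84.9% of the gene's reads, and that with the downstream exon held 6.48% and 5.28%.

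Constitutive splicing was the rule in the other carriers. In 15 carriers, 98 annotated internal exons had 20 or more spanning reads in each library. Of these exons, 88 were held by more than 95% of reads on average and 2 by less than 5%. The 8 between included the Slc25a3 pair, the 36-nt exon of Slc25a25, a 64-nt coding exon of Slc25a16 and 3 coding exons of Slc25a46. The Slc25a16 exon was in 34 of 36 reads and in 31 of 34. The Slc25a46 exon most often skipped, with 101 nt, was in 69 of 76 reads in replicate 1 and 57 of 66 in replicate 2, or 90.8% and 86.4%. For each of these exons, the intervals of the libraries overlap.

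**Figure D4:**
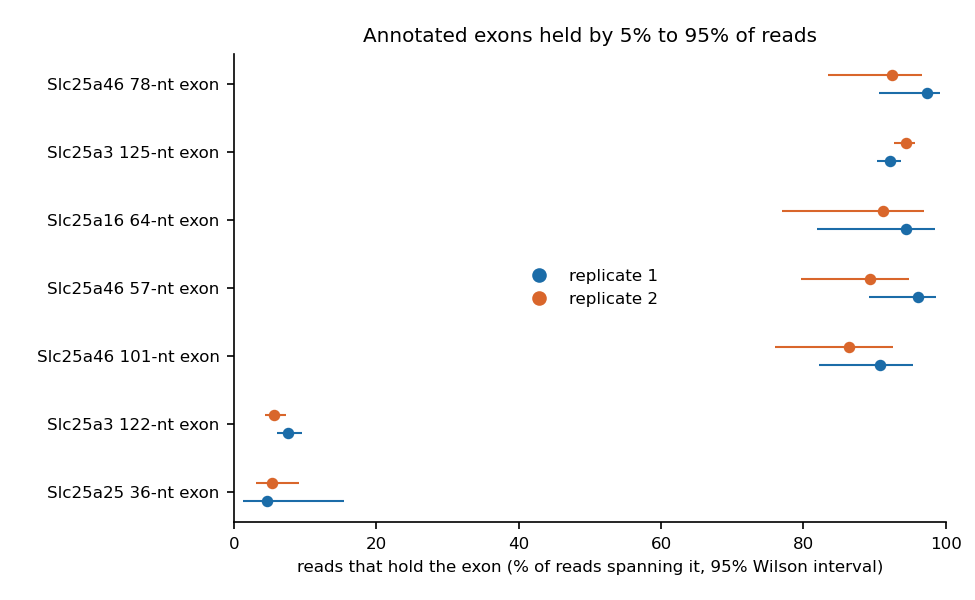
Share of spanning reads that hold each of 7 annotated internal exons of carriers found in 5% to 95% of reads, with 95% Wilson intervals and 1 point per library. The Slc25a3 125-nt exon lies above 92% and the 122-nt exon below 8% in both libraries, and each pair of intervals overlaps.

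One transcript dominated most carriers. In the 15 carriers with 20 or more reads in each library, the most abundant model held between 67.2% (Slc25a25) and 95.4% (Slc25a11) of reads on average. Its median share was 84.5%, against 80.1% over the 4697 genes measured alike. A second model reached a mean of 10% or more in 2 carriers. In Slc25a15 this was an unannotated chain of 7 exons with a splice site not in the annotation, found in 5 of 32 and 4 of 31 reads, or 15.6% and 12.9%. In Slc25a5 it was single-exon reads, described next. In all, 240 unannotated spliced chains were found in the carriers, of which 62 were seen in both libraries and 157 rested on 1 read.

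Shares of models were compared by Fisher's exact test over 70110 models of all genes that had at least 20 reads per library. Calls needed a difference of 10 points and an adjusted p under 0.05. That called 0.0513% of all models and 0 of the 212 carrier models. At a raw p under 0.05, without adjustment, there were 7 of the 212 carrier models. The share of all models at that limit was not counted, so nothing is read from this number. At an adjusted p under 0.05 with no limit in points there were 2, both in Slc25a4, against 0.147% of all models. Its annotated transcript held 8636 of 9532 reads in replicate 1, or 90.6%, and 10108 of 10669 in replicate 2, or 94.7%. Fisher's exact test gave an adjusted p of 4.7e-26 for this 4.14-point difference. The rest was nearly all single-exon reads, at 8.71% (8.16% to 9.29%) and 4.70% (4.31% to 5.11%). For the main Slc25a25 transcript, which starts at the near exon, the share was 57.4% and 77.0%, a 19.6-point difference with a raw p of 0.00584 and an adjusted p of 1 by Fisher's exact test.

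Reads that the authors classed as Genomic, here single-exon reads inside the gene, numbered 1012 in replicate 1 and 698 in replicate 2 over the carriers. Of these, 1000 and 675 belonged to models within the last annotated exon. The ends of such models snap to annotated positions, so where the reads themselves ended was not measured. Slc25a4 gave 830 and 501 of the Genomic reads and Slc25a5 gave 134 and 153. In Slc25a5 they made up 26.7% (23.01% to 30.7%) and 31.4% (27.4% to 35.6%) of the gene's reads. Slc25a5 has 8 annotated pseudogene copies at up to 98.3% identity, which is more than any other carrier. One of these copies, Slc25a5-ps, had 1 read in replicate 1 and 0 in replicate 2. Reads of Slc25a5 and of its copies may not be fully separable, and the part of the copies in the single-exon reads was not tested. Leaving Genomic reads out of every gene moved the Slc25a4 share of ADP/ATP carrier reads from 95.3% to 96.4%. The median Genomic share was 1.90% in the 23 carriers tested and 0.459% over all genes tested.

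**Figure D5:**
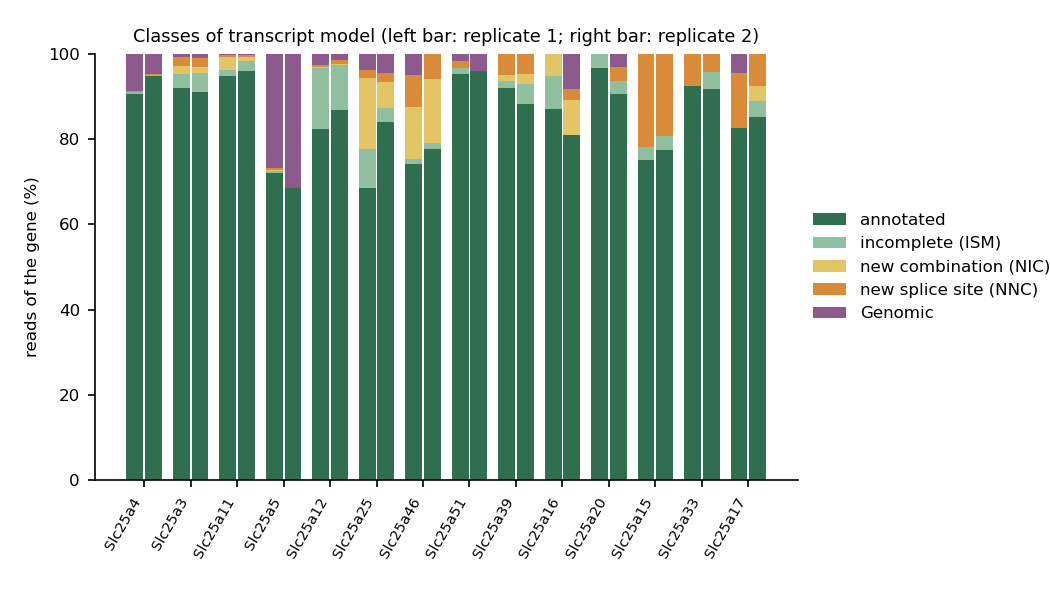
Share of each gene's reads by class of transcript model in 14 carriers with 50 or more reads, with replicate 1 as the left bar and replicate 2 as the right bar of each pair. Slc25a5 has the largest Genomic share (26.7% and 31.4%), and Slc25a12 the largest share of incomplete models (14.2% and 10.5%).

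Slc25a23 had few full-length reads. An internal exon of this gene has an annotated extended form of 286 nt that ends the transcript early, at chr17:57047051-57047336 (minus strand). Reads were assigned to an end by their spliced models, so where the reads themselves ended was not measured. Single-exon reads were left out, among them 4 Genomic reads in replicate 1, of which 2 belonged to models within the last exon. Of reads assigned in this way, 22 of 23 ended in the extended exon in replicate 1, or 95.7% (79.0% to 99.2%). In replicate 2 it was 12 of 16, or 75.0% (50.5% to 89.8%). Of all reads of the gene, 22 of 30 and 12 of 16 were classed as incomplete matches. Transcripts spliced on to the last exon of the gene had 1 and 4 reads. Slc25a22, in turn, had annotated models in 6 of 15 and 3 of 16 reads, and new combinations of annotated splice sites in 6 and 8. Models with the same introns did not always carry the same class, so class counts may not compare between libraries.

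Relatives of the family under other names and the genes around the carriers were read from lists. Of the 5 relatives, Mtch1 and Mtch2, outer membrane insertases, had 468 and 391 CPM and 134 and 152 CPM. The uncoupling proteins Ucp3, of muscle, and Ucp2 had 69.0 and 88.1 CPM and 29.7 and 35.0 CPM. Ucp1, the uncoupling protein of brown fat, had 0 reads. None of the 4 tested was called, and their median log2 ratio was 0.21. The carriers reach the inner membrane through the Tom70 receptor, the small Tim chaperones and the Tim22 complex. All 10 genes of that list had reads, 0 of the 9 tested were called, and the median log2 ratio was 0.36. Timm29 (120 and 168 CPM), Tomm70a (82.1 and 105 CPM) and Timm13 (81.2 and 103 CPM) were the most abundant.

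The enzymes listed for the mitochondrial shuttles, not all of which use an SLC25 carrier, all had reads. All 10 were tested and 0 were called, with a median log2 ratio of 0.21. The malate dehydrogenase of the matrix, Mdh2, had 1211 and 1607 CPM, and the cytosolic one, Mdh1, had 391 and 547 CPM. Carnitine acetyltransferase, Crat, had 577 and 560 CPM. Gpd1, of the glycerol phosphate shuttle, which needs no SLC25 carrier, had 475 and 341 CPM. By the exact binomial test the adjusted p passed without reaching 2-fold in Mdh2 (ratio 1.33, adjusted p = 3.1e-12) and Mdh1 (ratio 1.40, adjusted p = 1.0e-05), which were higher in replicate 2. It also passed in Gpd1 (ratio 0.718, adjusted p = 7.2e-05) and Gpd2 (ratio 0.704, adjusted p = 0.049), which were lower there. Of 13 other transporters of the mitochondrial membranes, 10 were tested and 0 called, with a median log2 ratio of 0.32. The outer membrane channels Vdac3 (438 and 617 CPM), Vdac2 (353 and 437 CPM) and Vdac1 (413 and 316 CPM) led, before the pyruvate carrier subunit Mpc1 (159 and 245 CPM). In all 4 of these the adjusted p passed without reaching 2-fold, with Vdac3, Vdac2 and Mpc1 higher and Vdac1 lower in replicate 2.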

How the data were processed

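Long-read RNA sequencing of gastrocnemius was analysed in 2 libraries of 1 group. The deposited values are raw read counts per transcript model, which the authors list for models with reads; the tables also give other values, exon number and length, which the authors took from the transcript annotation. Per the labels, the genome build was mm10; per the file headers, models carry TALON classes and GENCODE M21 names. Which aligner was used, and at which version, is not given in the sources used here. A different version of the analysis document is cited in the labels of each library, so the animal and that version cannot be told apart.

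Spike-ins were left out. Reads were summed per gene and, by intron chain, per model. The gene test took 20 or more reads over both libraries and the share test 20 in each. Intervals are 95% Wilson intervals; like the floors, they hold counting error alone. Exons between 5% and 95% were counted as variable. Genomic reads were placed in the last exon with 10 nt of slack. Ratios are of CPM; log2 ratios had 0.5 reads added. Pseudogene copies were annotated pseudogene transcripts with 90% identity over 50% of their length or more (BLAST 2.17.0). Promoters came from RefSeq (GRCm38.p6), matched by symbol for 36 of 47 carriers, and exon sequences from GENCODE M21 transcripts. Carriers with 50 or more reads are named with both values (1 is counted but not reported here), those with 5 or fewer by name; from the other lists up to 4 genes of highest level are named. Members and lists were chosen with earlier results of these data known. Both tests were tested on simulated data. Python 3.11.15, scipy 1.17.1, pandas 2.3.3, Biopython 1.88 and matplotlib 3.10.9 were used, with edgeR 4.0.16 and DESeq2 1.42.0 for scaling alternatives. Other alternatives changed the read minimum, the fold, the classes counted, the library size and the libraries included.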

Additional observations from a re-analysis of the deposited data

How the results depend on the processing

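The number of carriers called was 2 of 23 tested with TMM scaling (2.66% of all genes called), DESeq2 size factors (2.65%) and a library size without mitochondrially encoded genes (2.75%), 2 of 32 with a minimum of 5 reads (1.66%) and 2 of 38 with none (1%). It was 4 of 23 at any fold (9.11%), 1 of 21 with annotated transcripts only (2.76%) and 1 of 23 without the Genomic class (3.09%). In both of the latter Slc25a25 was called and Slc25a36 was not, at ratios of 0.286 and 0.276 against 0.270. Carrier models with a share difference numbered 2 of 212 without the 10-point limit (0.147% of all models), 0 of 167 with a minimum of 50 reads (0.0868%) and 0 of 152 without incomplete and Genomic models (0.0602%). The Slc25a4 share of ADP/ATP carrier reads was 96.4% with annotated transcripts only and 96.4% without the Genomic class, beyond 1 SD of 95.3%. Leaving out 1 of 2 replicates only gives the value of the other, so it is no check of these results. Those values were 11065 and 14648 CPM for the summed level and 95.0% and 95.6% for the Slc25a4 share. They were 92.4% and 94.4% for the Slc25a3 upstream exon, and 100% for the Slc25a12 share. The annotated-only alternatives for Slc25a25 were chosen after seeing the data: its ratio became 6.74 and its near-exon share 89.6% against 89.8%. No paired analysis was possible because there is 1 group. Depth limits the carriers under 20 reads, which were not tested.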
